A study of Ovis aries with 30 samples.

Results

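The genes described here are 40 genes of the hypoxia pathway chosen by symbol, with earlier results of these data known. Of these, 38 are in the table of 28524 genes. MIR210HG and INSIG2B were not found in it and are not analysed here. The 30 libraries come from perirenal brown adipose tissue (BAT) and the thyroid gland, with 1 library of each tissue for each of 15 newborn lambs of the Romney sheep breed. The 3 controls (lambs 237, 238 and 246) were sampled before any treatment, about a day after birth, the 6 cold lambs were then kept at 4 °C for 2 days, and the 6 ambient temperature (AT) lambs at 20–22 °C for the same 2 days. The treated lambs were therefore 2 days older than the controls, so age and treatment cannot be told apart against the controls. Only cold against AT compares lambs of 1 age.

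When oxygen is short, the alpha subunits of the hypoxia-inducible factors (HIF) escape hydroxylation by the oxygen-dependent EGLN enzymes and degradation through the VHL protein, pair with a beta subunit and switch on target genes. These targets serve glucose use, glycogen storage, vessel growth, iron uptake, pH control and the removal of mitochondria. Birth is the step from the low oxygen of the fetus to breathing air, and BAT of newborn sheep is a heat-producing tissue with a high oxygen use. HIF alpha subunits are controlled mainly through their protein, so the RNA level of HIF1A says little about HIF activity, whereas the RNA of targets such as EGLN3, AK4, ANKRD37, BHLHE40, STC1, NDRG1, ADM and CA9 is often read as its trace. The question asked of the data was whether the controls, sampled soonest after birth, carried high levels of such genes.

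Values are normalised read counts, that is counts divided by a size factor from the 3 reference genes ACTB, RPL19 and HUWE1. Log2FC values (± SE) come from edgeR's quasi-likelihood test on all genes of a tissue, with p-values adjusted over all genes tested. A gene was called when its log2FC was at least 1 in either direction and its adjusted p was under 0.05. The study left control 238 out of its own comparisons, so the tests compared the 6 lambs of a treated group with controls 237 and 246, and were repeated with all 3 controls. Of the 38 genes, 36 passed the filter on low counts in BAT and 37 in thyroid tissue. STC2 was too low in both tissues and EFNA3 in BAT. The filter (10 reads in 10 libraries) drops any gene that reaches 10 reads only in controls. STC2 in BAT was 38.8, 6.45 and 15.6 in controls 237, 238 and 246, at most 8.59 in cold and 6.68 in AT. In thyroid tissue these controls held 30.4, 6.33 and 48.9, the cold lambs at most 10.8, and AT lamb 240 held 113 (next 13.5). Controls 237 and 246 thus lay above all treated lambs in BAT, but control 238 did not. The main tests within a tissue left STC2 out.

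Libraries held 31556500 to 37025998 counts in BAT and 25062784 to 30124871 in thyroid tissue, but the gene pair LOC114112617 and LOC114115287 took 43.8% to 76.5% of the counts in BAT, leaving 8093700 to 18276329 for all other genes. Control 238 stood apart in both tissues, with the smallest size factor (0.465 in BAT and 0.632 in thyroid tissue). In its BAT library the reference genes disagreed after scaling. RPL19 stood at 18573, against 9826 and 8155 in controls 237 and 246. HUWE1 stood at 1663, against 3356 in both, and ACTB at 23913, against 34438 and 31097. The BAT levels of control 238, and BAT fits that include it, therefore depend on the choice of reference genes. The BAT library of control 238 held a summed level of 20490 over the endothelial markers, against 56959 to 93309 in the treated lambs, and 367541 over the brown adipocyte markers, against 29381 to 119989. Most of the brown adipocyte sum came from ADIPOQ (204209), UCP1 (87348) and FABP4 (61792). These genes, PLIN1, PPARGC1A and DIO2 were higher in control 238 than in controls 237 and 246. CIDEA, EBF2, PRDM16 and PPARG were lower than in both, and ADRB3 lay between them. The thyroid library of control 238 held PTH, the parathyroid hormone gene, at 7229, against 40.2 in control 237 and 0 in control 246. Its summed parathyroid and C cell markers, at 79994, lay within the range of the treated lambs (256 to 266224). Skeletal muscle markers summed to 4003250 in the thyroid library of AT lamb 240 and to 330889 in that of control 237, against 185 to 4694 in the others. The part of these other tissues in the results was not tested, and results are given with and without these libraries below. In bulk tissue, fewer cells of a type and less RNA per cell cannot be told apart.

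Most members did not have all 3 controls outside the range of the 12 treated lambs. A member was counted as control-high when all 3 controls lay above all 12 treated lambs. In BAT these were STC1, AK4, BHLHE40 and TFRC, which is 4 of 36 members, against 4.45% of all genes tested in BAT. In thyroid tissue they were HIF1A, STC1, P4HA3, NDRG1 and KDM4B, which is 5 of 37, against 6.49% of all genes tested. No member had all 3 controls below all 12 treated lambs in either tissue, against 3.75% of genes in BAT and 2.23% in thyroid tissue. STC1, which encodes the secreted glycoprotein stanniocalcin, was the only member counted in both tissues. Under TMM scaling, which balances the bulk of genes, the same 4 members remained in BAT, against 4.54% of all genes. In thyroid tissue HIF1A, STC1 and P4HA3 remained, against 3.34% of all genes. All 3 controls of HIF3A and SLC2A12, 2 of 36 members, came to lie below all treated lambs in BAT. That count was near the 4.62% of all genes that did so.

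Each control was then compared with the treated lambs on its own. In BAT, control 237 lay above all 12 treated lambs in 8 of 36 members (22.2%), against 15.4% of all genes, and control 246 in 9 (25%), against 18.5%. Control 238 did so in 17 members (47.2%), against 21.5% of all genes, while 43.1% of all genes lay below the treated range in that library. The median member stood 0.55 on the log2 scale above the median of the treated lambs in control 238, where the median gene stood at −0.42. The same member median was 0.32 in control 237 and 0.09 in control 246. The high levels in BAT were thus widest in the library that the study left out, and the other controls were nearer to the share over all genes. In thyroid tissue, control 237 lay above all treated lambs in 12 of 37 members (32.4%, against 19.5% of all genes) and control 238 in 13 (35.1%, against 23.9%). Control 246 did so in 11 members (29.7%), fewer than the 42.2% of all genes that lay above the treated range in it.

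**Figure D1:**
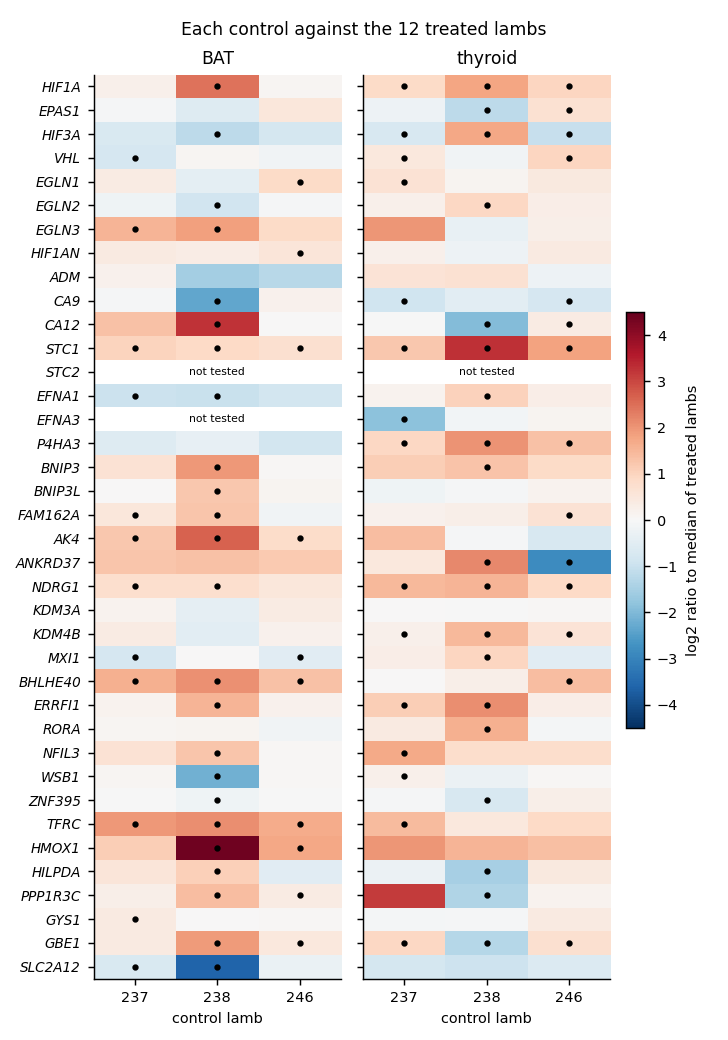
Log2 ratio of the level of each member in each control to the median of the 12 treated lambs of the same tissue, as colour (red above, blue below), with a dot where the control lies above or below all 12 treated lambs. In BAT the strongest colours belong to control 238, and STC1, AK4, BHLHE40 and TFRC are red with a dot in all 3 controls.

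Among the alpha subunits in BAT, HIF1A, the widely expressed subunit, stood at 687 in control 237, 3218 in control 238 and 620 in control 246. The cold lambs ranged from 391 over a median of 554 to 697, and the AT lambs from 352 over 615 to 696. The treated lambs reached up to controls 237 and 246, and control 238 stood alone. Its log2FC was −0.21 ± 0.25 in cold (adjusted p = 0.703) and −0.22 ± 0.25 in AT (adjusted p = 0.629), and with all 3 controls it passed the thresholds in AT, at −1.38 ± 0.40 (edgeR adjusted p = 0.0369). EPAS1 encodes HIF-2 alpha, the subunit of endothelial and fat cells. Its BAT levels were 5677, 3918 and 8365 in controls 237, 238 and 246, then 5854 to 9699 in cold (median 7164) and 3073 to 6585 in AT (median 4776). The groups overlapped, and no comparison of EPAS1 passed (cold against AT 0.61 ± 0.20, edgeR adjusted p = 0.241). HIF3A, whose product can oppose the other alpha subunits, was at 249, 176 and 231 in the controls, at 288 to 510 in cold (median 344) and at 210 to 704 in AT (median 450). It had 0.91 ± 0.35 in AT (adjusted p = 0.117) and was called in AT with all 3 controls (1.11 ± 0.31, edgeR adjusted p = 0.0306).

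In thyroid tissue all 3 controls were above all treated lambs in HIF1A. The values were 2528, 4705 and 2696 in controls 237, 238 and 246, 1304 to 1838 in cold (median 1441) and 986 to 1766 in AT (median 1283). HIF1A had a log2FC of −0.79 ± 0.19 in cold (adjusted p = 0.0144) and −0.94 ± 0.19 in AT (adjusted p = 0.00548), past the edgeR test but short of the fold threshold. With all 3 controls it was downregulated in both (−1.13 ± 0.21, adjusted p = 0.00393 in cold and −1.28 ± 0.21, adjusted p = 0.00224 in AT), whereas TMM scaling left −0.50 ± 0.18 in cold (edgeR adjusted p = 0.0902). EPAS1 in thyroid tissue was 3024, 1591 and 5757 in the controls, around treated ranges of 2377 to 3877 in cold (median 3301) and 2234 to 5451 in AT (median 3572). HIF3A was 103, 574 and 83.3 in the controls, 110 to 241 in cold (median 172) and 119 to 242 in AT (median 163), so that controls 237 and 246 lay below and control 238 above every treated lamb. The sign of its log2FC turned with control 238, from 0.88 ± 0.34 to −0.55 ± 0.47 in cold, and neither passed the edgeR test (adjusted p = 0.0776 and 0.449).

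The oxygen sensors differed from each other in BAT. EGLN3, the inducible HIF prolyl hydroxylase and itself a HIF target, was 834, 1048 and 527 in controls 237, 238 and 246. It was 177 to 588 in cold (median 426) and 189 to 301 in AT (median 237), with every AT lamb below every control and the highest cold value above that of control 246. EGLN3 was downregulated in AT (−1.51 ± 0.32, edgeR adjusted p = 0.0118) and had a log2FC of −0.69 ± 0.33 in cold (adjusted p = 0.286). EGLN1, the main sensor at normal oxygen, was 2173, 1237 and 3010 in the controls, 1318 to 2291 in cold (median 2002) and 1141 to 1796 in AT (median 1437), with −0.85 ± 0.24 in AT (edgeR adjusted p = 0.0346), under the fold threshold. EGLN2, the remaining enzyme of the family, was 1440, 897 and 1563 in the controls and 1231 to 2901 in the treated lambs, with medians of 1511 in cold and 1809 in AT. No edgeR comparison of EGLN2 in BAT passed, the smallest adjusted p being 0.452 against the controls.

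Sensors in thyroid tissue gave no call with 2 or with 3 controls. EGLN1 stood at 3312, 2296 and 2890 in the controls, at 2111 to 2486 in cold (median 2193) and at 1429 to 3225 in AT (median 2067). EGLN2 stood at 2831, 4675 and 2988, against 2165 to 3138 in cold (median 2298) and 2219 to 2728 in AT (median 2537). EGLN3 stood at 2016, 405 and 615, against 407 to 716 in cold (median 522) and 371 to 2783 in AT (median 471). Its highest values came from AT lamb 240 and control 237, the libraries with skeletal muscle RNA. VHL, the substrate receptor of the ligase that marks HIF alpha for degradation, was 811, 522 and 1127 in the controls and 372 to 621 in AT, with −0.90 ± 0.19 (edgeR adjusted p = 0.00675), just under the fold threshold.

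**Figure D2:**
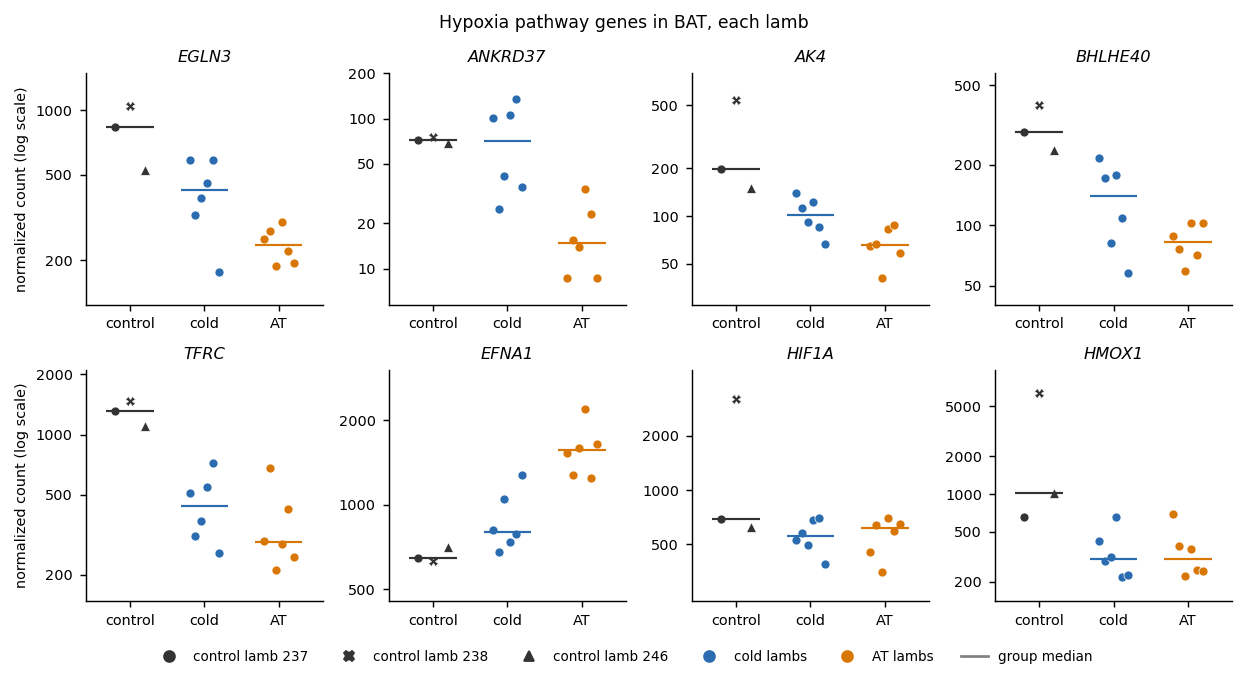
Normalised read counts in BAT of 8 of the members described in full, on a log axis, with 1 point per lamb, a line at each group's median and the controls marked by lamb. The AT lambs lie below all 3 controls for EGLN3, ANKRD37, AK4, BHLHE40 and TFRC and above them for EFNA1, and control 238 stands alone for HIF1A and HMOX1.

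Against the controls in BAT, 6 members were called in AT and 0 in cold. In AT the 5 downregulated members were AK4, TFRC, EGLN3, BHLHE40 and ANKRD37, and EFNA1 was upregulated, where 3.21% of all genes were called lower and 2.86% higher. In cold the shares over all genes were 0.637% lower and 0.577% higher. In cold, 7 members had an unadjusted p under 0.05 in edgeR, and DESeq2 called 1, TFRC. The median log2FC over the members was −0.21 in cold and −0.17 in AT, beside −0.10 and −0.03 over all genes, and 24 and 22 of 36 members were negative. With all 3 controls, AK4, GBE1, TFRC and HMOX1 were called lower in cold (4 members), and in AT HIF1A and HMOX1 were called lower and HIF3A higher as well (9 members). The shares of all genes called with 3 controls are not given here, so the rise is not a result about the members. A difference between the cold and the AT response is not shown by these counts. Without control 237 or without control 246, none of the 6 calls in AT remained.

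AK4, a mitochondrial adenylate kinase, was 198, 540 and 150 in BAT of controls 237, 238 and 246, against 66.3 to 140 in cold (median 102) and 40.8 to 87.2 in AT (median 65.9). All 3 controls lay above all treated lambs. The change was −1.38 ± 0.30 in AT (edgeR adjusted p = 0.0119) and −0.76 ± 0.30 in cold (adjusted p = 0.190). The other mitochondrial members are the mitophagy receptors BNIP3 and BNIP3L and the small mitochondrial protein gene FAM162A. In BAT, BNIP3 was 1960, 4897 and 1304 and BNIP3L 3303, 7452 and 3487 in the controls, high only in control 238, and none of these genes was called.

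BHLHE40, a transcriptional repressor tied to the circadian clock and to hypoxia, was 291, 400 and 238 in the BAT controls, 57.6 to 216 in cold (median 140) and 59.0 to 103 in AT (median 82.3). Again no treated lamb reached a control, and the change was −1.66 ± 0.37 in AT (edgeR adjusted p = 0.0130) and −0.97 ± 0.37 in cold (adjusted p = 0.175). ANKRD37, a small ankyrin repeat protein gene, was low throughout, at 72.2, 75.3 and 68.7 in the controls. The cold lambs ran from 25.1 to 134 (median 71.0), on both sides of the controls, and the AT lambs from 8.60 to 33.9 (median 14.8), all below them. ANKRD37 was downregulated in AT (−2.05 ± 0.57, edgeR adjusted p = 0.0358) and stood at 0.06 ± 0.60 in cold (adjusted p = 0.969). Its exons share 5 bases with UFSP2, and those of BHLHE40 share 55 bases with LOC105603426, so reads there may belong to either gene.

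TFRC, the transferrin receptor for iron uptake, was 1313, 1469 and 1099 in the BAT controls, 258 to 719 in cold (median 443) and 212 to 684 in AT (median 291). The controls lay above every treated lamb, and the change was −1.75 ± 0.38 in AT (edgeR adjusted p = 0.0128) and −1.41 ± 0.38 in cold (adjusted p = 0.0694). TFRC is also a gene of red cell precursors, and the summed erythroid markers in BAT were 1962 to 6493 in the controls and 888 to 5370 in the treated lambs; their part in the result was not tested. HMOX1, which breaks down heme, was 659, 6340 and 1020 in the controls, 217 to 661 in cold (median 305) and 223 to 700 in AT (median 307). It had a log2FC of −1.24 ± 0.42 in cold and −1.22 ± 0.42 in AT (edgeR adjusted p = 0.133 and 0.0804), and with control 238 added −2.87 ± 0.57 and −2.84 ± 0.57 (adjusted p = 0.0113 and 0.00672).

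EFNA1, a membrane-bound ligand of Eph receptors, went the other way. The BAT controls held 647, 628 and 705, the cold lambs 677 to 1277 (median 799) and the AT lambs 1242 to 2185 (median 1559), so that every AT lamb was above every control. It was upregulated in AT (1.22 ± 0.28, edgeR adjusted p = 0.0149) and stood at 0.39 ± 0.26 in cold (adjusted p = 0.455). STC1 was 940, 858 and 774 in the BAT controls, 252 to 665 in cold (median 465) and 359 to 610 in AT (median 466). All controls lay above all treated lambs, but −0.93 ± 0.28 in cold and −0.84 ± 0.28 in AT missed the thresholds (edgeR adjusted p = 0.0964 and 0.0730). GBE1, the glycogen branching enzyme, was 579, 1639 and 608 in the controls, 370 to 461 in cold (median 421) and 411 to 586 in AT (median 450), and was called lower in cold with all 3 controls (−1.11 ± 0.27, edgeR adjusted p = 0.0246).

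The remaining 22 members tested in BAT, among them ADM, CA9, CA12, VHL, HIF1AN, NDRG1, KDM3A, MXI1, HILPDA and GYS1, had log2FC values from −0.57 (CA12) to 0.85 (P4HA3) in cold and from −0.79 (NDRG1) to 0.98 (P4HA3) in AT. ADM was 5652, 1725 and 2084 in controls 237, 238 and 246, 2747 to 6793 in cold (median 4739) and 1502 to 10878 in AT (median 5477), so that control 238 and control 246 lay below every cold lamb. CA9 was low in BAT, at 45.5, 8.61 and 54.6 in the controls and 18.1 to 146 in the treated lambs, and control 238 lay below all of them. Of these members, MXI1, an antagonist of MYC, had an adjusted p under 0.05 in AT (0.68 ± 0.21, edgeR adjusted p = 0.0499), under the fold threshold.

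**Figure D3:**
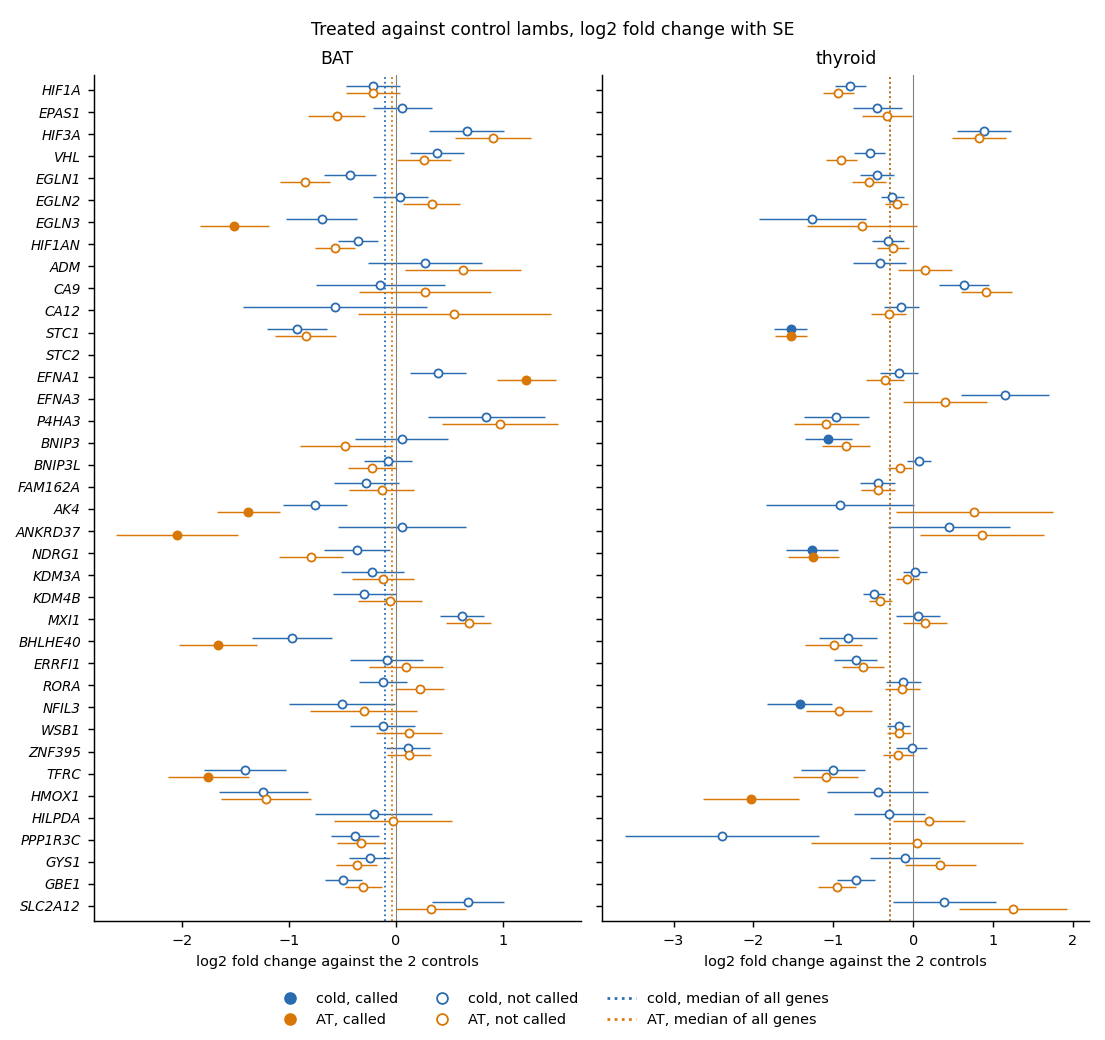
Log2FC with its SE for each member tested, in cold and in AT against controls 237 and 246, in BAT and in thyroid tissue. Filled points are called and dotted lines give the median of all genes; in BAT the 6 filled points all belong to AT, and in thyroid tissue STC1 and NDRG1 are filled in both treatments.

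In thyroid tissue, 4 members were downregulated in cold (NFIL3, STC1, NDRG1 and BNIP3), and 3 in AT (STC1, HMOX1 and NDRG1). None was called higher. The summed thyroid follicular cell markers were 2886650, 1933830 and 5904780 in controls 237, 238 and 246, against 1331900 to 2721800 in the treated lambs. Their part in the thyroid results was not tested. Over all genes, 6.15% were called lower and 1.89% higher in cold, and 5.98% lower and 1.82% higher in AT. The median log2FC over the members was −0.45 in cold and −0.30 in AT, beside −0.28 over all genes in both. TMM scaling moved the median of all genes to 0.02 and 0.05, and that of the members to −0.13 and 0.05, and it left STC1 in each treatment as the only member called lower, beside CA9, a carbonic anhydrase, called higher in AT (1.24, edgeR adjusted p = 0.0306). Over all genes it turned the calls in cold from 305 higher and 991 lower to 456 and 336, and those in AT from 294 and 964 to 474 and 270. The shares over all genes given above belong to the fit with 2 controls. Those of fits with other libraries are not given here, so the counts that follow are not results about the members. With all 3 controls, 7 members were called in cold and 6 in AT, HIF1A, ERRFI1 and P4HA3 being added in both. With AT lamb 240 and control 237 left out, 2 members were called in cold (STC1 and BHLHE40, both lower) and 7 in AT, against control 246 alone. Without control 246 none was called in either treatment.

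STC1 had the smallest adjusted p of the members in thyroid tissue. It was 913, 3881 and 1406 in controls 237, 238 and 246, 333 to 494 in cold (median 391) and 309 to 484 in AT (median 412). Every control was above every treated lamb. The change was −1.53 ± 0.21 in both treatments (edgeR adjusted p = 0.00111 in cold and 0.00101 in AT), and under TMM scaling −1.22 ± 0.20 and −1.17 ± 0.20 (adjusted p = 0.00509 and 0.00607). STC1 lies on chromosome 2 at 44122882 to 44137567 of Oar_rambouillet_v1.0, the authors' build, on the plus strand.

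NDRG1, a differentiation and stress gene used as a hypoxia marker, was 1522, 1588 and 1036 in the thyroid controls, 370 to 619 in cold (median 551) and 254 to 809 in AT (median 593). All controls were higher than all treated lambs, with −1.27 ± 0.32 in cold and −1.25 ± 0.32 in AT (edgeR adjusted p = 0.0163 and 0.0156). BNIP3 was 3202, 3571 and 2696 in the controls, 1224 to 1531 in cold (median 1484) and 1138 to 3259 in AT (median 1378), where the highest AT value came from lamb 240 and every other AT lamb lay below the controls. BNIP3 was downregulated in cold (−1.06 ± 0.30, edgeR adjusted p = 0.0242) and stood at −0.84 ± 0.30 in AT (adjusted p = 0.0584). Without AT lamb 240 and control 237 the values were −0.94 in cold and −1.02 in AT, so that BNIP3 was no longer called in cold and was called in AT (adjusted p = 0.00146 and 0.000797). The control arm is then control 246 alone, which is assumed to vary like the treated groups.

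NFIL3, a transcriptional repressor of the bZIP family, was 344, 182 and 184 in the thyroid controls, 55.7 to 122 in cold (median 106) and 89.5 to 291 in AT (median 115). The cold lambs lay below the controls, and the change was −1.42 ± 0.41 (edgeR adjusted p = 0.0273). The highest control was 237, one of the libraries with muscle RNA, and without it and AT lamb 240, against control 246 alone, the change was −0.91 (edgeR adjusted p = 0.0846). HMOX1 was 2059, 1509 and 1308 in the controls, 287 to 534 in AT (median 398) and 329 to 3667 in cold (median 882), a range wider than that of any other group of HMOX1 in thyroid tissue. It was downregulated in AT (−2.03 ± 0.60, edgeR adjusted p = 0.0309) and not called in cold (−0.45 ± 0.64, adjusted p = 0.656). The call in AT was lost under 10 of 27 alternatives, with edgeR adjusted p up to 0.188, among them TMM scaling, RNA integrity as a covariate, no filter on low counts, and leaving out AT lamb 241 or 243 or either control. HMOX1 is also a macrophage gene, and the summed macrophage markers were 1531 to 2587 in the controls and 2871 to 9329 in the treated lambs (median 6784 in cold and 4004 in AT); their part in the result was not tested.

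P4HA3, a subunit of the collagen prolyl 4-hydroxylase, was 220, 471 and 290 in the thyroid controls, 95.8 to 160 in cold (median 132) and 37.8 to 191 in AT (median 116), with no overlap. Its log2FC of −0.96 ± 0.40 in cold and −1.09 ± 0.40 in AT missed the test with 2 controls (edgeR adjusted p = 0.104 and 0.0661) and passed with 3 (−1.32 ± 0.37 and −1.44 ± 0.37, adjusted p = 0.0249 and 0.0187). ERRFI1, a feedback inhibitor of the EGF receptor, was 1756, 3514 and 1005 in the controls, 707 to 1119 in cold (median 788) and 613 to 1412 in AT (median 849), with −0.72 ± 0.26 in cold and −0.63 ± 0.27 in AT. ERRFI1 was called with all 3 controls (−1.32 ± 0.30 and −1.22 ± 0.30, edgeR adjusted p = 0.00957 and 0.0149). KDM4B, a histone demethylase, was 1533, 3661 and 2013 in the controls against 1074 to 1387 in cold (median 1283) and 1175 to 1451 in AT (median 1373), a separation of all controls with a log2FC of only −0.49 ± 0.14 in cold (edgeR adjusted p = 0.0266).

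The other 23 members tested in thyroid tissue ranged from −2.39 (PPP1R3C) to 1.15 (EFNA3) in cold and from −1.10 (TFRC) to 1.25 (SLC2A12) in AT. CA9 was 76.0, 103 and 84.7 in the controls, 88.4 to 161 in cold (median 127) and 114 to 196 in AT (median 156), with controls 237 and 246 below every treated lamb and all controls below every AT lamb (0.92 ± 0.32 in AT, edgeR adjusted p = 0.0538). ADM was 1065, 1126 and 599 in the controls, 521 to 752 in cold and 627 to 1717 in AT. PPP1R3C, a glycogen-targeting subunit of protein phosphatase 1, stood at 913 in control 237 and at 39.5 and 114 in controls 238 and 246, so its value rested on the library with muscle RNA. GBE1, at 2429, 527 and 2138 in the controls, had −0.72 ± 0.24 in cold and −0.96 ± 0.24 in AT (edgeR adjusted p = 0.0482 and 0.0126), both under the fold threshold, and no longer passed once control 238 was added (adjusted p = 0.599 and 0.302).

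**Figure D4:**
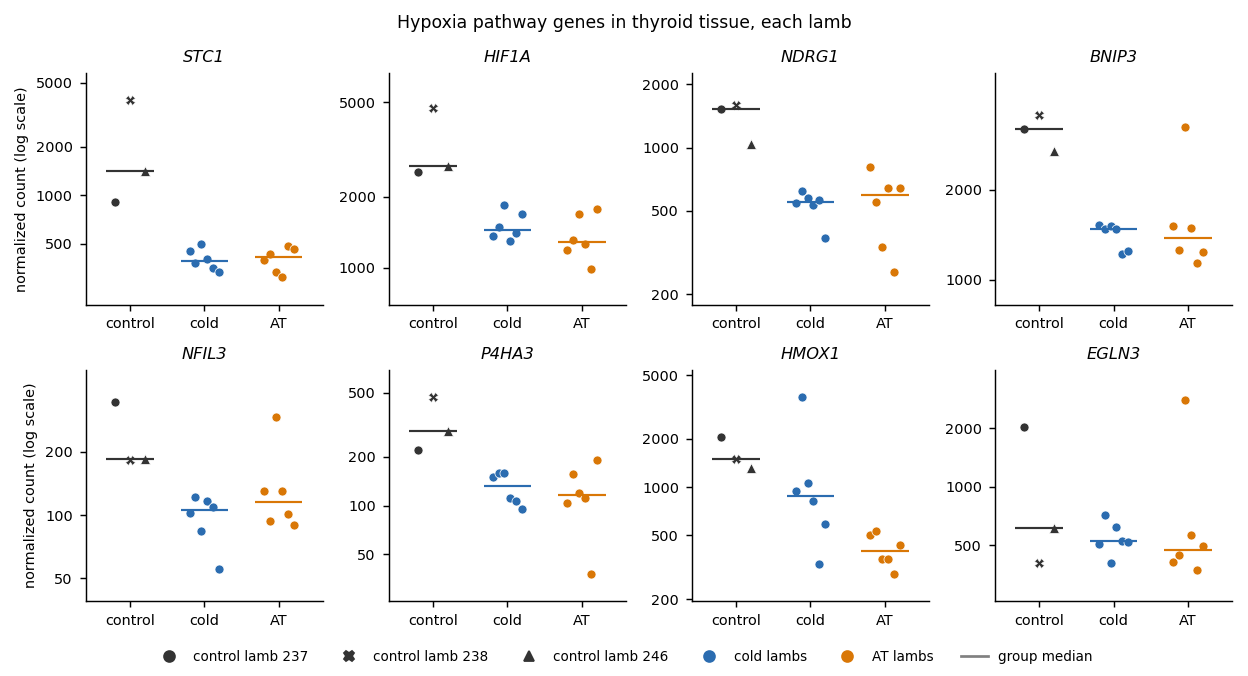
Normalised read counts in thyroid tissue of 8 of the members described in full, on a log axis, with 1 point per lamb, a line at each group's median and the controls marked by lamb. All 3 controls lie above all treated lambs for STC1, HIF1A, NDRG1 and P4HA3, and the highest AT point of BNIP3, NFIL3 and EGLN3 is lamb 240.

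Cold against AT, the comparison within 1 age, gave 0 calls among the members in either tissue by edgeR. In BAT 0.188% of all genes were called higher in cold and 0.0872% lower, and 8 members had an unadjusted p under 0.05. ANKRD37 was nearest, with 2.11 ± 0.46 (edgeR adjusted p = 0.0694). It was called under TMM scaling (2.20 ± 0.43, adjusted p = 0.0376) and by DESeq2, each with 1 member called, but not with all 3 controls (adjusted p = 0.155). The cold and AT levels of ANKRD37 overlapped, the lowest cold value of 25.1 lying below the highest AT value of 33.9. EFNA1 followed with −0.83 ± 0.18 (edgeR adjusted p = 0.0761). In thyroid tissue no gene at all was called lower in cold (0%) or higher, and 6 members had an unadjusted p under 0.05, with 0 called by DESeq2. The median log2FC over the members was −0.06 in BAT and −0.00 in thyroid tissue.

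Other genes of the pathway were taken from 4 lists. Like the members, these lists were chosen with earlier results of these data known, so setting their counts against all genes is not an unbiased comparison. Of 22 glycolytic HIF targets tested in BAT, 6 were downregulated in AT (SLC2A1, PFKL, SLC2A3, SLC16A3, ENO1 and LDHA) and 0 in cold, where 3.21% and 0.637% of all genes were called lower, with a median log2FC of −0.81 and −0.58. In cold, 6 of them had an unadjusted p under 0.05 by edgeR, and with all 3 controls 12 were called in AT and 5 in cold. The shares just given are from the fit with 2 controls. Those with 3 are not given here, so the counts of 12 and 5 stand without a background. The largest change was in SLC16A3, the lactate exporter, at 804, 305 and 392 in controls 237, 238 and 246 and 97.1 to 191 in AT (−2.23, edgeR adjusted p = 0.00072). SLC2A1, the basal glucose transporter GLUT1, was 234, 736 and 141 in the controls, 62.7 to 113 in cold and 44.4 to 85.0 in AT (−1.46, edgeR adjusted p = 0.00851 in AT). All 3 controls of SLC2A1 lay above all treated lambs in BAT, but not in thyroid tissue, where controls of 491, 536 and 795 met treated lambs of up to 784. In thyroid tissue, 4 of 22 were downregulated in cold (PFKL, ENO1, GPI and PGAM1, list median −0.97) and 2 in AT (PFKL and PGAM1, list median −0.63), where 6.15% and 5.98% of all genes were called lower. PGAM1, a phosphoglycerate mutase, had the largest change (−1.37 and −1.47, edgeR adjusted p = 0.00169 and 0.00104). PGAM1 was 6072, 2187 and 8366 in the controls, so that control 238 lay below most treated lambs, which ran from 2044 to 3799. With all 3 controls the cold value of PGAM1 was −0.99, under the fold threshold.

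Of the angiogenic targets, 12 were tested in BAT and 11 in thyroid tissue, and all calls against the controls were lower. In BAT they were 3 in cold (NOS3, VEGFA and APLN) and 5 in AT (KDR and FLT1 as well), where 0.637% and 3.21% of all genes were called lower. APLN, the vessel peptide apelin, stood at 1015, 108 and 675 in controls 237, 238 and 246, at 45.9 to 200 in cold and at 20.4 to 96.0 in AT, with −2.78 ± 0.50 and −4.34 ± 0.51 (edgeR adjusted p = 0.0190 and 0.000480). VEGFA, the main vessel growth factor, was 9413, 1420 and 2859 in the BAT controls, 1228 to 2525 in cold and 1163 to 3302 in AT. Control 238 lay within the treated range for VEGFA, and the calls (−1.79 ± 0.38 in cold and −1.53 ± 0.39 in AT, edgeR adjusted p = 0.0346 and 0.0228) were lost with all 3 controls (−1.29 and −1.02, adjusted p = 0.0833 and 0.126). In thyroid tissue VEGFA was 16234, 5054 and 44243 in the controls and 9519 to 18158 in the treated lambs, again with control 238 lowest. HIF1A, AK4 and HMOX1 were highest in control 238 in BAT while VEGFA and APLN were lower there than in the other controls.

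In thyroid tissue 5 angiogenic targets were downregulated in cold (PDGFB, NOS3, FLT1, NOS2 and VEGFA) and 4 in AT (NOS3, FLT1, NOS2 and VEGFA), of 11 tested, where 6.15% and 5.98% of all genes were called lower. NOS2, the inducible nitric oxide synthase, had the largest change (−2.43 and −2.22, edgeR adjusted p = 0.00160 and 0.00169), with controls at 439, 122 and 1013 and treated lambs at 73.3 to 267. Endothelial markers summed to 40309 to 59976 in the thyroid controls and to 23206 to 43472 in the treated lambs. The 40309 came from control 238, where EGFL7 alone was 24306. VWF in control 238 lay between controls 237 and 246, and the other endothelial markers were lower than in both, such as CDH5 at 471 against 2275 and 3695. The part of the endothelial markers in these results was not tested. Between cold and AT in BAT, FLT1, a VEGF receptor, was higher in cold (1.14, edgeR adjusted p = 0.0405) and NOS2 lower (−3.50, adjusted p = 0.0287); neither was called with all 3 controls.

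Among 21 further targets tested in BAT, P4HA1, a collagen prolyl 4-hydroxylase subunit, was downregulated in cold (−1.64, edgeR adjusted p = 0.0127) and AT (−2.14, adjusted p = 0.000683). Its controls were close together at 1372, 1734 and 1584, above cold lambs of 278 to 699.5 and AT lambs of 245 to 471. BHLHE41, a paralogue of BHLHE40, was upregulated in AT (1.82, edgeR adjusted p = 0.0293), with controls at 118, 316 and 56.2 and AT lambs at 129 to 519, a call lost with all 3 controls (0.97, adjusted p = 0.186). None of 19 was called in thyroid tissue, where 4 had an unadjusted p under 0.05 in each treatment. Of 14 HIF partners and degradation genes, only CITED4, a CBP/p300-binding coregulator, was called, lower in BAT of AT lambs (−1.22, edgeR adjusted p = 0.0248), and not with all 3 controls (adjusted p = 0.189).

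The members were also unlike in level between the tissues. In a joint fit of both tissues, 12 of 38 members were higher in BAT and 4 lower, where 25% of all genes were called higher in BAT and 14.2% lower, so the higher share was near that of all genes. Higher in BAT were ADM (3.97), AK4 (3.23), NDRG1 (2.72), HIF3A (2.68), NFIL3 (2.61), ANKRD37 (2.15), EPAS1 (2.14), STC1 (1.36), KDM4B, KDM3A, EGLN1 and BNIP3, of which the last 4, at log2FC up to 1.18, were lost under TMM scaling. With the lamb as a block BNIP3 fell short of the fold threshold (0.97) and PPP1R3C was called higher in BAT instead (1.89, edgeR adjusted p = 0.00208). Lower in BAT were CA12 (−4.38), EFNA3 (−4.34), P4HA3 (−1.57) and TFRC (−1.28). EFNA3 had not passed the filter in BAT, where the treated lambs held at most 15 reads. It entered the joint fit through its thyroid libraries, so its call rests on that filter.

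Compared per kilobase of exon over the 12 treated lambs, ADM, the vasodilator peptide adrenomedullin, had the highest median level of the members in BAT, at 4090 normalised counts per kb, followed by WSB1 at 3009 and EPAS1 at 1706. In thyroid tissue the highest were WSB1 at 1590, CA12, a membrane carbonic anhydrase, at 1059 and FAM162A at 861. EPAS1 stood above HIF1A in both tissues (1706 and 238 in BAT, 401 and 214 in thyroid tissue), and HIF3A was at 106 in BAT and 17.5 in thyroid tissue. HIF1A overlapped between the tissues, whereas every treated lamb had more EPAS1 and HIF3A in BAT.

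**Figure D5:**
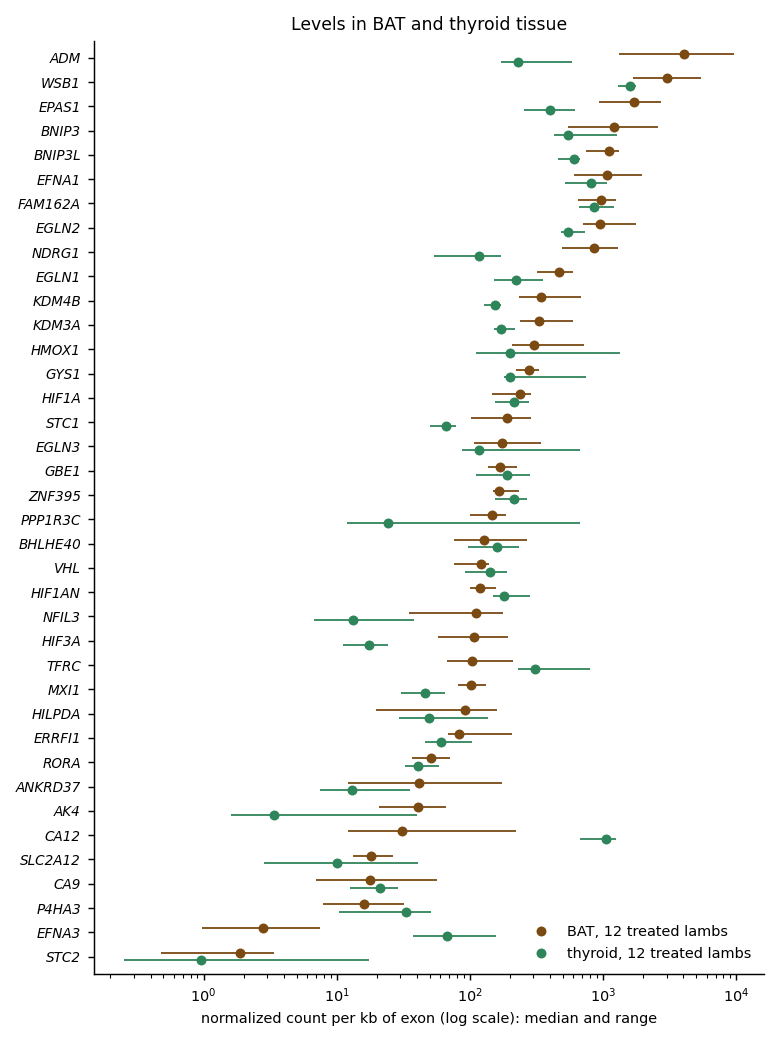
Median level of each member per kilobase of exon in BAT and in thyroid tissue over the 12 treated lambs, in normalised counts per kb on a log axis, with lines from the lowest to the highest lamb. EPAS1, HIF3A and ADM lie higher in BAT and CA12, EFNA3 and TFRC higher in thyroid tissue, without overlap of the lines. EFNA3 had not passed the filter on low counts in BAT.

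The response itself was compared between the tissues by the interaction of tissue and treatment, called at an adjusted p under 0.05. For cold against control, 0 of 38 members differed (2 had an unadjusted p under 0.05 by edgeR; no other tool was run), where 0.188% of all genes did. For AT against control, EFNA1 and VHL differed, where 1.66% of all genes did. EFNA1 changed by 1.63 more in BAT than in thyroid tissue (edgeR adjusted p = 0.0216), and its thyroid levels were 2813, 5126 and 3036 in the controls against 1544 to 3161 in AT. VHL differed by 1.22 (edgeR adjusted p = 0.0451), from BAT controls of 115, 209 and 175 beside AT lambs of 116 to 213, and from the thyroid levels given above. The VHL difference was lost under 15 of 18 alternatives, with edgeR adjusted p up to 0.376, among them no filter on low counts and leaving out most of the lambs one at a time. The median difference over all genes was 0.31 in this comparison, and under TMM scaling neither member passed. With all 3 controls EFNA1, STC1, EGLN2 and P4HA3 differed, by 2.03, 1.60, 1.10 and 2.40, and VHL did not. Calls over all 17021 genes rose as well, from 257 with a higher change in BAT and 26 with a lower one to 742 and 46.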

How the data were processed

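The authors extracted RNA with TRIzol, captured mRNA with oligo(dT), sequenced read pairs on the BGISEQ-500 platform, trimmed them with Trimmomatic 0.39, aligned them with STAR 2.7.7a to Oar_rambouillet_v1.0 and counted them per RefSeq gene with featureCounts of Subread 2.0.0, including reads with several matches (versions partly per the submitters' processing notes). Whether counting used the strand is not given in the sources used here. The deposited values are raw counts per gene and library.

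Counts were divided by median-ratio size factors over ACTB, RPL19 and HUWE1, the study's reference genes, and tested with edgeR 4.0.16 (robust quasi-likelihood, R 4.3.3) per tissue with all 3 groups, keeping genes that reached 10 reads in 10 or more of the 14 libraries used, with Benjamini-Hochberg adjustment. Thresholds were an absolute log2FC of 1 and an adjusted p of 0.05. Controls 237 and 246 were used because the study's normalised counts of its controls are proportional to the deposited counts of these lambs. Tissues were compared in a joint fit, in which the tissues of a lamb share its number and animal. That fit kept genes that reached 10 reads in 10 or more libraries of both tissues pooled, which let in STC2 and EFNA3. Alternatives were all 3 controls, other control pairs, TMM and median-of-ratios scaling, no filter, DESeq2 1.42.0, the 2 groups alone, an RNA integrity covariate, a replicate block (lamb) and each lamb left out. Fits combining all 3 controls with TMM, and fits without thyroid libraries of AT 240 and control 237, were chosen after seeing the data. The scripts were tested on simulated data.

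The members and lists were chosen with earlier results of these data known. Members were described in full when called with 2 or 3 controls, when they encode a HIF alpha subunit or an EGLN enzyme, or when all 3 controls lay outside the treated range. Of each other list, the called genes with the largest change in each direction were named, plus VEGFA and SLC2A1. Each lamb is 1 sample, and values at low counts carry counting error on top. Chromosomes were named by the RefSeq table of ARS-UI_Ramb_v3.0 through shared gene names, and coordinates are those of the count table.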

Additional observations from a re-analysis of the deposited data

Results flagged for a closer look

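In 9 of 146 groups of 6 lambs examined, 1 lamb stood apart from the other 5 by a test of its gap to the next lamb (Dixon), which chance gives in about 1 in 20 groups. AT lamb 240 was the highest in 6 of them, all in thyroid tissue, with EGLN3 at 2783 (next lamb 562), BNIP3 at 3259 (next 1514), NFIL3 at 291 (next 130), PPP1R3C at 2664 (next 148), GYS1 at 4165 (next 1343) and SLC2A12 at 213 (next 61.2). Skeletal muscle markers summed to 4003250 in this library, and their part in these values was not tested. Cold lamb 244 was the highest for TFRC in thyroid tissue at 6862 (next 2731) and the lowest for NDRG1 at 370 (next 530). Cold lamb 239 was the highest for EGLN2 in thyroid tissue at 3138.

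The AT response differed between the tissues in EFNA1, by 1.63 on the log2 scale (BAT minus thyroid), and in VHL, by 1.22, by the test of the difference itself. The VHL difference passed at an adjusted p of 0.0451 and was lost under 15 of 18 alternatives, and that of EFNA1 under 3 of 18.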

How the results depend on the processing

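For most alternatives below, the share called over all genes is not given, so a moved count of members is not a result about them. With all 3 controls, 4 members were called in BAT in cold (main 0), 7 in thyroid tissue in cold (main 4) and 6 in thyroid tissue in AT (main 3). Tissue differences in AT then numbered 4 (main 2), where those over all genes rose from 257 higher and 26 lower to 742 and 46. With TMM as well, BAT gave 7 in cold and 10 in AT (main 6), and thyroid AT 6. Control 238 in place of 237 gave 5 and 10 in BAT and 7 and 7 in thyroid tissue, cold and AT in turn, and in place of 246 it gave 6 in BAT in cold and 9 and 8 in thyroid tissue. TMM or median-of-ratios scaling left 1 thyroid call in cold and gave 1 in BAT cold against AT, and TMM left 0 tissue differences in AT. DESeq2 called 1 in BAT in cold, 1 in BAT cold against AT and 5 in thyroid AT. No filter left 1 tissue difference. Adjusted p alone gave 7 and 6 in thyroid tissue. Leaving out thyroid AT 240 and control 237 gave 2 and 7 against a lone control, assumed to vary like the other groups, and with all 3 controls 7 and 9. ANKRD37 was called in the first of these in AT, where it rested on 2.65 normalised counts in control 246. Leaving out 1 lamb at a time gave 0 to 1 calls in BAT in cold, 0 to 7 in AT and 0 to 1 cold against AT, 0 to 6 in thyroid tissue in cold and 0 to 10 in AT (10 without AT 240), and 0 to 3 tissue differences in AT. Members with all controls below all treated lambs numbered 2 in BAT under either scaling, against 4.62% (TMM) and 4.78% (median-of-ratios) of all genes. Over 2 controls and with the reference genes they numbered 1 in BAT and 2 in thyroid tissue, against 5.61% and 3.77%. Those above numbered 3 in thyroid tissue under either scaling, against 3.34% and 3.20%. The cause of these moves was not tested. With the replicate block (lamb), 16 members differed in level between tissues, as without it, 0 differed in the cold response and 2 in the AT response (EFNA1, adjusted p = 0.00795, and VHL, 0.0494), so the counts did not move, although BNIP3 was no longer called between tissues and PPP1R3C was. No called value changed direction under any alternative.

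With 2 or 3 controls, lambs of 1 start group carry every comparison against controls, and members at low counts such as ANKRD37 were not measured finely.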
